A study of Mus musculus with 2 samples.

Results

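The enzymes that make and break down haem were described here as they appear in the RNA of the newborn mouse bladder. The set holds 9 genes of the 43346 mouse genes measured, taken by symbol and gene identifier and not by their values: Alas1, Alas2, Alad, Uros, Urod, Cpox and Fech of haem synthesis, and Hmox1 and Blvrb of haem breakdown. Ppox, Hmox2 and Blvra, 3 further enzymes of the pathway, are given beside them as neighbouring steps.

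The samples were whole bladders of 2 pups of the inbred strain B6NCrl, a C57BL/6 substrain, taken on postnatal day 0 from 1 pregnant female, untreated and with no engineered allele named in the labels. Sex was not collected, and each pup gave 1 total RNA library made from 10 ng of RNA. Both libraries belong to 1 group, newborn bladder (n = 2), so the study holds no contrast between conditions, and what can be compared are the genes with each other and the littermates with each other. The libraries summed to 43653536 (pup 1) and 32564256 (pup 2) expected counts over mouse genes, the estimated reads per gene. With 1 library per pup no test across animals was possible, and the 95% intervals below cover counting error only. Genes of bladder muscle and urothelium marked both libraries as labelled, with the smooth muscle actin Actg2 at 27630 and 25651 TPM and the uroplakin Upk3a at 2051 and 2029 TPM.

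Haem is an iron-holding porphyrin ring that carries oxygen in globin and electrons in cytochromes. Its synthesis begins in the mitochondrion, where an aminolaevulinic acid synthase joins glycine to succinyl-CoA, continues in the cytosol and returns to the mitochondrion, where iron is inserted. The synthase exists as a housekeeping enzyme, Alas1, made in nearly all cells and held down by haem, and as an erythroid enzyme, Alas2, made in developing red cells. Haem oxygenase opens the ring and releases iron, carbon monoxide and biliverdin, and its inducible form, Hmox1, is abundant in macrophages that take up red cells and responds to haem and oxidative stress.

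The synthases are separate genes with different control sequences, which are shown because Alas1 and Alas2 are contrasted below. Alas1 lies on chromosome 9 from 106233455 to 106248654 on the minus strand, and Alas2 on chromosome X from 150547375 to 150570638 on the plus strand (mm10, annotation GENCODE M21). Their leading coding sequences are 1923 nt for Alas1 and 1761 nt for Alas2, and 75.6% of 1699 aligned bases were identical. The longest run of bases shared by the full transcripts was 20 nt.

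The stretch before the Alas2 start, chrX:150547167-150547374 on the plus strand, holds 1 match to the GATA motif AGATAA, read here on the other strand and printed in capitals. It is followed by 30 bases of the 5′ leader of Alas2-201, with the loop CAGTGC of a hairpin pattern in capitals, and by 30 bases before a start site of Alas1, chr9:106247906-106247935 on the minus strand, with 2 overlapping matches to the NRF1 motif GCATGCGC in capitals. The promoter bases are from RefSeq (GRCm38.p6) and the leader is from the GENCODE M21 transcript.
Alas2 promoter: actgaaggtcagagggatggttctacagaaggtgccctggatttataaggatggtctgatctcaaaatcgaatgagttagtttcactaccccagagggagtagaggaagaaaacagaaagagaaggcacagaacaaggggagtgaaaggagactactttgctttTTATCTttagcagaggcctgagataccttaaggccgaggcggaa
Alas2 leader: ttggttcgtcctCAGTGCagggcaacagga
Alas1 start: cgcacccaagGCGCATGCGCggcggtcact

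Promoter windows, searched on both strands over the 250 bases before each start, were found for 7 of the 9 members; Fech and Hmox1 were not matched in the table. AGATAA was found for 1 of those 7, Alas2, against 11.4% of 27025 genes and 9.99% of their 32851 windows. GCATGCGC was also found for 1, Alas1, against 2.56% of genes and 2.26% of windows, and CCACCC, the letters bound by Krüppel-like factors, for 3 (Alas1, Alas2 with 3 matches, and Blvrb) against 30.6% of genes and 28.1% of windows. RefSeq places the Alas2 start downstream of that of Alas2-201, and the 3 CCACCC matches of Alas2 lie after the printed stretch, within the first exon of Alas2-201. With the 50 bases after the start included, Cpox gained 1 AGATAA match. The printed Alas1 matches lie before 1 RefSeq start and after another, whose window had 0 before its start and 2 with those 50 bases. The Alas1 bases lie within an exon of the longer transcript Alas1-207. The hairpin pattern, a C, 5 paired bases, the loop CAGTGN and the 5 partner bases, is that of an iron-responsive element, to which iron regulatory proteins bind. It was found in the annotated 5′ leaders of 31 of 21877 genes, or 0.142%, and of the 12 pathway genes in Alas2 alone. The printed leader bases start at base 84 of a 126-nt 5′ untranslated region and run across the junction of the first 2 exons, from position 150547458 to 150552150 of chromosome X. These matches describe letters and were not tested as binding sites.

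All 9 members were detected, that is, at 1 TPM (a level per transcript length, on the scale of each library) or more in both pups. Together they held 380.8 TPM in pup 1 and 645.5 TPM in pup 2, 0.0381% and 0.0645% of all TPM. Most of that difference lay in 2 genes, Alas2 and Hmox1: the other 7 members summed to 274.6 and 289.2 TPM. In bulk tissue such as this, more cells of a type and more RNA per cell cannot be told apart.

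**Figure D1:**
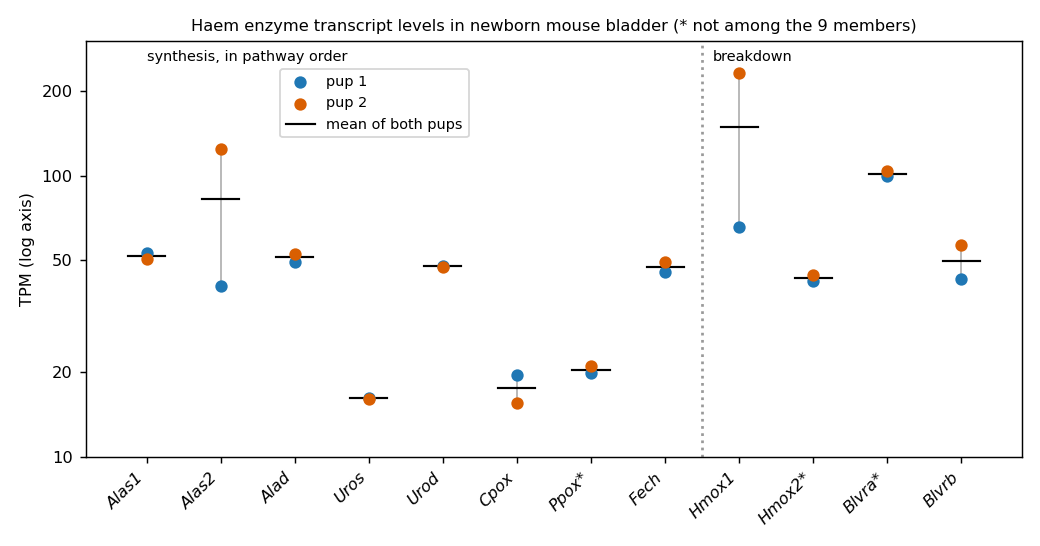
Level of the 12 haem enzymes in TPM on a log axis, one point per pup with the mean as a bar, in pathway order, with synthesis to the left and breakdown to the right of the dotted line and non-members starred. Alas2 and Hmox1 have widely separated points, at 40.5 and 125 TPM and at 65.7 and 232 TPM, whereas the points of most other enzymes nearly coincide.

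At the first step of synthesis, Alas1 was at 53.3 TPM in pup 1 and 50.6 TPM in pup 2 (51.9 ± 1.87, SD, n = 2), from 3114 and 2351 expected counts. On counts scaled between the libraries, pup 2 held 0.999 times the level of pup 1 (95% counting interval 0.947 to 1.05). That interval included equal levels of the housekeeping synthase. Alas2, the erythroid synthase, was at 40.5 TPM in pup 1 and 125 TPM in pup 2 (82.6 ± 59.6, n = 2), from 2269.6 and 5410.2 counts. Its scaled level was 3.15-fold higher in pup 2 (3.0 to 3.31).

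The order of the synthases by gene level thus differed between the animals: Alas1 stood above Alas2 in pup 1, and Alas2 above Alas1 in pup 2. Within a library, where no scaling enters, Alas2 was 0.759 times Alas1 by TPM in pup 1 and 2.46 times in pup 2. The count ratio changed 3.16-fold between the pups (exact conditional interval 2.93 to 3.40). Both synthases together summed to 93.7 and 175 TPM, and the share of Alas2 in that sum was 43.2% in pup 1 and 71.1% in pup 2. Because Alas1 was nearly equal, the larger sum of pup 2 was made up of Alas2.

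Along the cytosolic steps the levels differed little between the pups. Alad, which joins aminolaevulinic acid into porphobilinogen (chromosome 4, 62509169 to 62519918), was at 49.6 and 52.9 TPM in pups 1 and 2. Uros, which closes the ring as uroporphyrinogen III (chromosome 7, 133686243 to 133710072), was at 16.2 and 16.1 TPM. Urod, which removes carboxyl groups from that ring (chromosome 4, 116989965 to 116994413), was at 47.7 and 47.6 TPM. Uros was the lowest of the 12 enzymes by mean, 16.2 ± 0.0707 TPM (n = 2), and Urod and Alad stood higher at 47.6 ± 0.0707 and 51.2 ± 2.38 TPM. On scaled counts Alad had a log2 ratio (pup 2 over pup 1) of 0.18, Uros 0.11 and Urod 0.17. The counting interval of Uros, -0.05 to 0.27, included equal levels, and those of Alad and Urod did not. Ratios of TPM ran 0.08 lower on the log2 scale by the median, and by TPM the ratio of Urod was -0.00. A TPM ratio also takes in the effective length, which for Urod was estimated at 1187 nt in pup 1 and 1269 nt in pup 2, so the direction of its small difference depends on the measure.

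The last, mitochondrial steps ran in opposite directions by small amounts. Cpox, the coproporphyrinogen oxidase (chromosome 16, 58670292 to 58717636), was at 19.6 TPM in pup 1 and 15.5 TPM in pup 2 (17.6 ± 2.90, n = 2). It was the only member whose counting interval lay below equal levels, with a log2 ratio of -0.26 (-0.37 to -0.15). Fech, the ferrochelatase that inserts iron (chromosome 18, 64452914 to 64490251), was at 45.5 and 49.5 TPM (47.5 ± 2.89, n = 2), a log2 ratio of 0.20 (0.14 to 0.27). Fech had more counts than any other synthesis member in pup 1, 3812 against 3320 in pup 2, but per length it stood level with Urod. Alas2 relative to Fech, the erythroid entry of the pathway relative to its shared last step, was 0.890 by TPM in pup 1 and 2.52 in pup 2.

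The 7 synthesis enzymes measured here other than Alas2, Ppox included, summed to 251.7 TPM in pup 1 and 253.4 TPM in pup 2. Ppox, which oxidises the ring before iron enters, was at 19.9 and 21.1 TPM, with a log2 ratio of 0.15 (0.03 to 0.27). Levels therefore fell into a higher band, Alas1, Alad, Urod and Fech between 45.5 and 53.3 TPM, and a lower band, Uros, Cpox and Ppox between 15.5 and 21.1 TPM, in both pups. Alas2 was in neither band: it stood just under the higher band in pup 1 and far above it in pup 2.

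Of the breakdown enzymes, Hmox1, the inducible haem oxygenase (chromosome 8, 75093621 to 75100589), was at 65.7 TPM in pup 1 and 232 TPM in pup 2 (149 ± 117, n = 2), from 2937 and 8316 counts. Its scaled level was 3.75-fold higher in pup 2 (3.59 to 3.91), the widest difference of the 12 enzymes. Hmox2, the constitutive haem oxygenase, was at 42.4 and 44.4 TPM, a log2 ratio of 0.25 (0.15 to 0.35). Hmox1 was thus above Hmox2 in both pups, by 1.55 times in pup 1 and by 5.21 times in pup 2. The count ratio of the oxygenases changed 3.15-fold (exact conditional interval 2.90 to 3.42). Both oxygenases summed to 108 and 276 TPM, of which Hmox1 made up 60.8% and 83.9%.

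Blvrb, which reduces flavins and the beta form of biliverdin (chromosome 7, 27447978 to 27466144), was at 42.8 TPM in pup 1 and 56.9 TPM in pup 2 (49.8 ± 9.92, n = 2). Its scaled level was 1.37-fold higher in pup 2 (1.26 to 1.49), and 610 of 12733 genes had a higher ratio. Blvra, which turns the main form of biliverdin into bilirubin, was higher in level, at 99.6 and 104 TPM, with a log2 ratio of 0.14 (0.07 to 0.22). Blvrb per Blvra was 0.430 by TPM in pup 1 and 0.548 in pup 2.

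**Figure D2:**
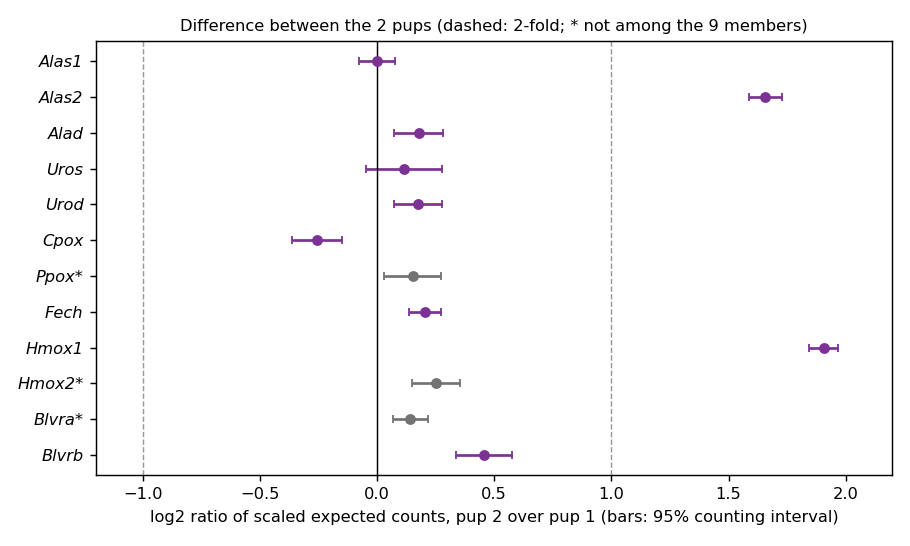
Log2 ratio of scaled expected counts, pup 2 over pup 1, for the 12 haem enzymes, with 95% counting intervals as bars, dashed lines at 2-fold and non-members in grey and starred. Alas2 at 1.66 and Hmox1 at 1.91 lie beyond the 2-fold line, and the other enzymes lie between -0.26 and 0.46.

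Among 12733 genes with a mean of at least 100 counts, 1.70% were at least 2-fold higher in pup 2 and 0.283% at least 2-fold lower. Of the 9 members, 2 were at least 2-fold higher, Alas2 and Hmox1, and 0 were lower. Only 71 genes had a higher ratio than Hmox1, and 91 a higher ratio than Alas2. By counting error alone, 22.3% of genes had an interval above equal levels and 30.0% below, against 6 and 1 of the 9 members. The members' median log2 ratio was 0.18 beside -0.02 over all genes, and without Alas2 and Hmox1 it was 0.17, with a range of -0.26 to 0.46. An interval that excludes equal levels is common at this depth and says only that 2 libraries differ.

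By mean level, Hmox1 ranked first of the 12 enzymes, followed by Blvra, Alas2, Alas1, Alad, Blvrb, Urod, Fech, Hmox2, Ppox, Cpox and Uros. Neighbours in that order had pup values that did not overlap only between Fech and Hmox2, between Hmox2 and Ppox and between Ppox and Cpox. The order within a pup differed: in pup 1 Blvra was highest and Alas2 ranked 9, and in pup 2 Hmox1 was highest and Alas2 ranked 2. Against the 13834 detected genes, the mean level of Hmox1 exceeded 93.1%, that of Alas2 87.8%, that of Alas1 81.4% and that of Uros 55.9%. All 12 enzymes were thus in the upper part of the detected genes.

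The annotated transcripts behind each gene were estimates by the authors' software, and their posterior SD shows how far reads could be assigned. For the genes as wholes this mattered little, since 8 of 9 members had a posterior SD of 0 counts in both pups and Alas2 had 2.04 counts in pup 1. For Alas1, reads were divided mainly between the coding transcript Alas1-201, with 51.5% of the gene's TPM in pup 1 and 38.0% in pup 2, and Alas1-206, annotated as a processed transcript without a coding frame, with 38.2% and 42.3%. Alas1-206 starts 4222 nt downstream of Alas1-201 with an exon of its own. Alas1-201 had 1667 ± 87.5 counts (posterior SD) in pup 1 and 934 ± 85.3 in pup 2, and Alas1-206 had 1101 ± 75.3 and 924 ± 70.0. The gene level of Alas1 therefore includes reads that the estimator gave to a transcript not annotated to encode the enzyme. Alas1-207, which starts 798 nt upstream, held 7.0% and 12.7%. On scaled counts Alas1-201 had a log2 ratio of -0.43 (-0.55 to -0.32) and Alas1-206 of 0.15 (0.02 to 0.28). That of Alas1-207, also annotated as coding, was 0.86 (0.65 to 1.08). These intervals leave out the uncertainty of the assignment.

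For Alas2, the full-length Alas2-201 led with 72.8% and 66.0% of TPM, and Alas2-202 held 25.5% and 28.4%. Alas2-202 starts 84 nt downstream and has an exon of 78 nt where Alas2-201 has 123 nt, and both carry the hairpin pattern. The difference between the pups was present in each: Alas2-201 went from 1707 ± 97.6 counts (posterior SD) in pup 1 to 3814 ± 147 in pup 2, and Alas2-202 from 553 ± 95.95 to 1517 ± 149. The log2 ratios were 1.56 and 1.86, where 3.10% of 19715 transcripts with a mean of at least 100 counts were at least 2-fold higher in pup 2.

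**Figure D3:**
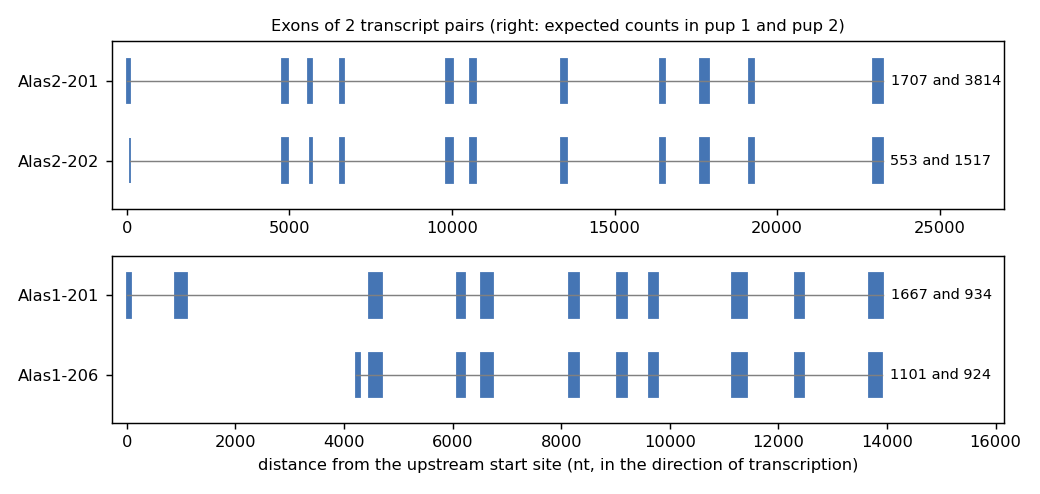
Exons (boxes) of Alas2-201 and Alas2-202 and of Alas1-201 and Alas1-206 by distance in nt from the upstream start site, with the expected counts of pup 1 and pup 2 at the right. The Alas2 pair share their exons except for boundaries at the start, at the third exon and at the end, and Alas1-206 starts downstream of the first exons of Alas1-201, with 1101 and 924 counts.

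The remaining members mostly had 1 leading transcript. Cpox and Fech each had 1 transcript with all reads in the deposited files, which use GENCODE M4, although the M21 annotation behind the coordinates lists more, Alad-201 held 98.0% and 98.4% of its gene, and Hmox1-201 held 98.5% and 99.4%. Urod-201 held 76.9% and 85.2%, and Blvrb-201 held 76.4% and 71.9%. Uros was split most evenly, with Uros-203 at 34.6% and 33.8% and Uros-204 at 22.6% and 37.2%. Uros-204 had 152 ± 50.9 and 199 ± 48.5 counts (posterior SD), a log2 ratio of 0.79 on scaled counts (0.48 to 1.11), an interval that leaves out the uncertainty of the assignment.

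**Figure D4:**
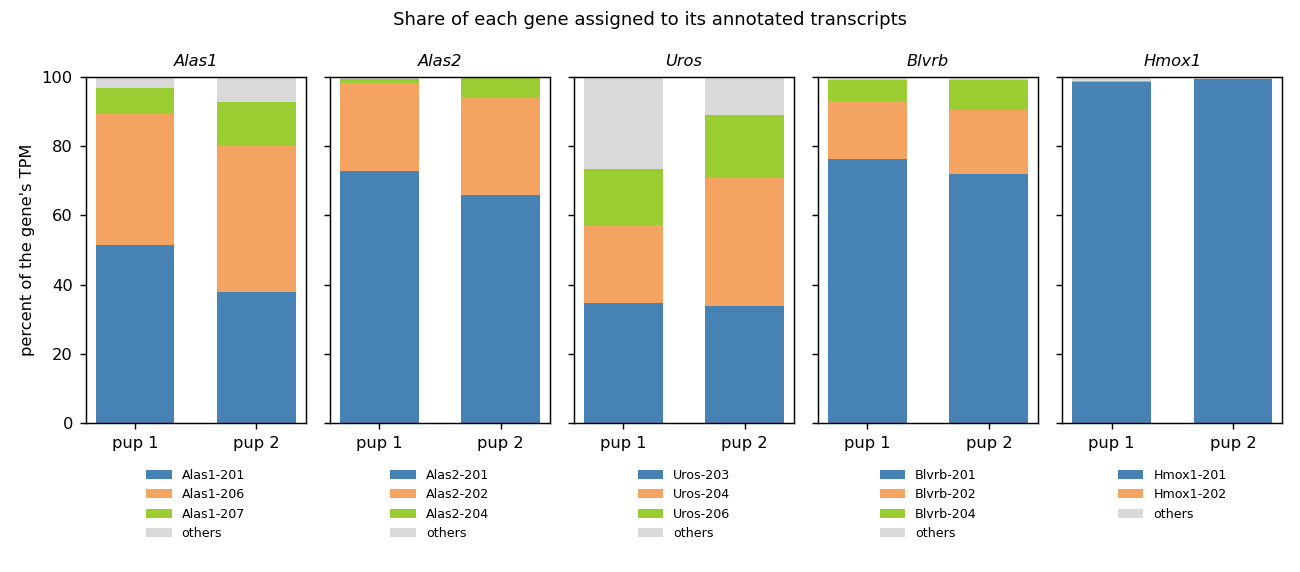
Stacked bars of the percent of each gene's TPM assigned to its annotated transcripts in each pup, for Alas1, Alas2, Uros, Blvrb and Hmox1. Hmox1 is nearly all Hmox1-201, Alas1 is divided mainly between Alas1-201 and Alas1-206, and the Alas2-202 share is 25.5% in pup 1 and 28.4% in pup 2.

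Some members overlap genes of the other strand, and whether counting used strand is not stated in the sources used here. The last exon of Alas2 overlaps Apex2 by 311 nt, and Apex2 was at 6.28 and 5.75 TPM, far below Alas2 and not higher in pup 2. An antisense gene over Alas1, 4930500F10Rik, shares 351 nt with it and was at 0.24 and 0.30 TPM, and Gpr15, which overlaps Cpox by 204 nt, was listed at 0 in both pups. The overlaps were larger for the oxygenase Hmox2, 765 nt with Cdip1 at 25.4 and 22.6 TPM, and for Ppox, 791 nt with B4galt3 at 36.6 and 36.6 TPM.

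Red cell genes stood higher in pup 2 along with Alas2. Of 23 erythroid genes, Alas2 not among them, 8 were detected in both pups, and of the 9 with at least 100 counts 5 were at least 2-fold higher and 0 lower, with a median log2 ratio of 1.32. The 5 were the globins Hba-a1, Hba-a2, Hbb-bs and Hbb-bt and the band 3 anion exchanger Slc4a1. The list's summed level was 21785.5 TPM in pup 1 and 59100.4 TPM in pup 2, nearly all of it globin. Hba-a2 was at 9397 and 26610 TPM and Hbb-bs at 6584 and 16224 TPM. Slc4a1 was at 0.96 and 2.27 TPM. The other 14 erythroid genes had a mean under 100 counts and reached at most 0.68 TPM in pup 1 and 3.53 TPM in pup 2, and 13 of them were higher in pup 2. Among these the erythroid factors Nfe2, Gata1 and Klf1 were at 0.52 and 3.53 TPM, at 0.17 and 0.37 TPM and at 0.16 and 0.23 TPM, the membrane protein gene Epb42 at 0.19 and 0.86 TPM, and the carbonic anhydrase Car1 at 0.15 TPM and 0. The ankyrin Ank1 was at 55.2 and 48.6 TPM, a log2 ratio of -0.03. Tfrc, the transferrin receptor, was lower in pup 2, at 10.6 and 4.44 TPM, a log2 ratio of -0.95.

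Set against globin within each library, Alas2 differed far less than on its own. Per 1000 TPM of Hba-a2, Alas2 was at 4.30 TPM in pup 1 and 4.69 TPM in pup 2, and per 1000 TPM of Hbb-bs at 6.14 and 7.69 TPM. Against other genes tied to red cells it differed more. Alas2 was 5.55 times the iron importer Slc25a37 by TPM in pup 1 and 11.8 times in pup 2, and Ank1 and Tfrc were not higher in pup 2. The part of red cell content in the Alas2 difference was not tested.

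Macrophage genes also stood higher in pup 2, along with Hmox1. All 11 were detected and 10 were higher, 7 of them at least 2-fold (Lyz2, Tyrobp, Ptprc, Fcer1g, Csf1r, C1qa and C1qc), with a median log2 ratio of 1.18 and a summed level of 624 TPM in pup 1 and 1968 TPM in pup 2. The receptor Csf1r was at 14.9 and 31.9 TPM, the complement gene C1qb at 107 and 198 TPM and the lysozyme Lyz2 at 216 and 1106 TPM, whereas the mannose receptor Mrc1 was at 16.9 and 13.1 TPM. Hmox1 relative to these genes depended on the gene: it was 4.41 and 7.26 times Csf1r and 0.616 and 1.17 times C1qb, and 0.303 and 0.209 times Lyz2. Cd163, the macrophage receptor for haemoglobin bound to haptoglobin, was nearly equal between the pups, at 3.78 and 3.72 TPM, a log2 ratio of 0.06. Hmox1 per Alas2 was 1.62 by TPM in pup 1 and 1.86 in pup 2.

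Neutrophil genes summed to 37.6 TPM in pup 1 and 378 TPM in pup 2, with 2 of 7 at 100 counts or more and both at least 2-fold higher (S100a8 and S100a9). Most of the sum lay in these 2, S100a8 at 24.6 and 263 TPM and S100a9 at 8.90 and 106 TPM. The other 5 had a mean under 100 counts, and 4 of them were higher in pup 2. Mpo was lower, at 1.54 and 1.02 TPM. Liver genes, a marker of another organ's RNA, went the other way, with 75.0 and 20.2 TPM and 5 of 6 at least 2-fold lower in pup 2 (Alb, Afp, Apoa1, Apoa2 and Fgb). The 12 bladder tissue genes had 0 at least 2-fold apart and a median log2 ratio of -0.04. The part of these cell types in the members' differences was not tested.

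**Figure D5:**
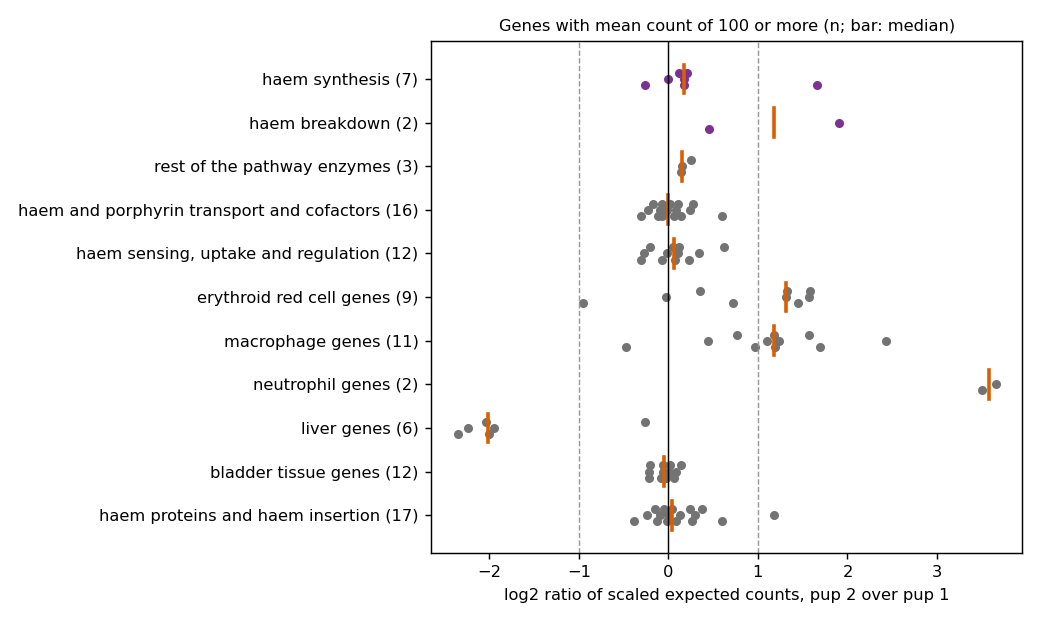
Log2 ratio of pup 2 over pup 1 for each gene with a mean of at least 100 counts, by gene list, with the number of genes in brackets, the list median as an orange bar and dashed lines at 2-fold. Most haem enzymes, transporters and regulators lie near 0 with the bladder tissue genes. Alas2 at 1.66 lies above the highest plotted red cell gene, at 1.58. Hmox1 at 1.91 lies below the highest macrophage gene, Lyz2 at 2.43, and above the next, Tyrobp at 1.70. The medians of the red cell and macrophage genes are 1.32 and 1.18.

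The genes that supply, move and sense haem had 0 calls, in lists so short that the background of 1.70% higher and 0.283% lower gives few or none. All 16 genes of haem and porphyrin transport and cofactors were detected, with 0 at least 2-fold apart, a median log2 ratio of 0.00 and a range of -0.30 to 0.60. The highest were the haem-binding Pgrmc1 at 373 and 336 TPM, the porphyrin transport protein Tmem14c at 158 and 156 TPM, the mitochondrial carrier Slc25a39 at 114 and 131 TPM and the iron-sulphur glutaredoxin Glrx5 at 112 and 115 TPM. Slc48a1, which exports haem from lysosomes, was at 87.0 and 78.4 TPM, and Clpx, a mitochondrial chaperone that acts on Alas enzymes, at 29.2 and 27.5 TPM. The ratio of 0.60 belonged to Slc25a37, mitoferrin 1, the iron importer best known from red cell precursors, at 7.29 and 10.6 TPM.

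Of 14 genes of haem sensing, uptake and regulation, 12 were detected and 0 of 12 with enough counts were at least 2-fold apart, with a median log2 ratio of 0.07. Hpx, haemopexin, fell short of 100 counts, with 84 in pup 1 and 23 in pup 2, 2.03 and 0.70 TPM. Nfe2l2 (NRF2), an activator of Hmox1, was at 56.6 and 51.6 TPM, its inhibitor Keap1 at 34.1 and 35.8 TPM, and its partners Mafk and Mafg at 63.2 and 49.5 TPM and at 16.5 and 19.3 TPM. Bach1, the haem-binding repressor of Hmox1, was at 4.65 and 4.43 TPM. Aco1, an iron regulatory protein that binds hairpins of the kind in the Alas2 leader, was at 57.6 and 47.3 TPM, and Lrp1, the receptor for haem bound to haemopexin, at 59.2 and 56.9 TPM.

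Genes with the ratio most like that of each synthase were taken from protein-coding genes within 2-fold of its mean level and with at least 100 counts. For Alas2, out of 2180 such genes, these were Tyrobp, Ctla2a, Laptm5, Tpsb2 and Ctss, with log2 ratios of 1.70, 1.70, 1.61, 1.87 and 1.89. Tyrobp, Laptm5 and Ctss are known from white blood cells and Tpsb2 is a mast cell protease. Of these 5, Tyrobp is also in the macrophage list. The limit on level left out the red cell genes called above, since the globins were far higher than Alas2 and Slc4a1 far lower. Hba-a2 and Hba-a1, with log2 ratios of 1.58 and 1.57, were nearer to Alas2 in ratio than Tpsb2 and Ctss. For Alas1, out of 3077, the nearest genes were U2af2, Sgce, Ate1, Nt5c3 and Rmdn3, all with a log2 ratio of -0.00. Likeness here is the distance between ratios of 2 libraries, so it describes these pups only.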

How the data were processed

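Total RNA-seq libraries from 2 newborn bladders were used, pup 1 and pup 2 as the labels number them. The authors deposited a gene file and a transcript file for each library, in RSEM layout. Assembly mm10 and GENCODE M4 are named in a text listing deposited with each sample. Which aligner, RSEM version and strand setting were used is not given in the sources used here. Expected counts, as the authors deposited them, estimate the reads of each gene, share out multi-mapped reads and carry no normalisation. The deposited TPM are scaled to the same sum in each file, spike-ins included. The deposited FPKM are per kilobase and depth and were not used for results. The deposited percent of a gene per transcript and posterior SD of counts were used as given. TPM divide by an effective length 99 nt below the transcript length, which raises short genes.

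Of 43346 mouse genes, 42462 were matched by identifier to GENCODE M21, which has the same assembly. Libraries were put on 1 scale by TMM from rounded expected counts (edgeR 4.0.16 in R 4.3.3), and a count of 0 was set to 3. Intervals are exact binomial (Clopper-Pearson) at 95%, or exact conditional for ratios of genes, and PCR copies are not told apart, so they cover counting error only. Calls needed a mean of at least 100 counts and a 2-fold ratio, and detection needed 1 TPM in both pups. No p-value was computed. Some genes of the lists are not reported here. Sequences were read from RefSeq promoter windows and GENCODE M21 transcripts. The members and gene lists were chosen with earlier results of these data known. Named genes are all members, the other pathway enzymes, the list genes called, 5 genes nearest in ratio to each synthase and, of other lists, examples from the 6 highest by mean TPM; Gata1, Klf1, Nfe2, Epb42, Hpx, Car1, Tfrc, Mrc1, Slc25a37, Bach1, Cd163 and overlapping genes were added after their values were seen. Scaling, pseudocount, detection floors, posterior means and single pups were tried as alternatives, and the steps were tested on simulated counts. Analysis used Python 3.11.15, pandas 2.3.3, numpy 2.4.6 and scipy 1.17.1.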

Additional observations from a re-analysis of the deposited data

How the results depend on the processing

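With both pups kept, there were 23 alternative values of the main results (members detected, members 2-fold apart, their median log2 ratio and level, Alas2 over Alas1). Counts of members did not change, and the level and Alas2 over Alas1 moved by less than the SD of both pups. The median log2 ratio, 0.18 in the main setting, ran from 0.09 to 0.20. It stayed within the counting interval of its median member, Alad (0.07 to 0.28). Without the filter on counts the number 2-fold apart could not change, because all 9 members passed that filter. Of single-gene values, 50 stayed within the SD of both pups (levels) or the counting interval (ratios), 11 moved beyond it and 2 reversed. The log2 ratio of Urod, 0.17 on scaled counts, was 0.17 and 0.19 under other scalings, but -0.00303 as a ratio of TPM and -0.00297 with 1 added to TPM. The TPM settings also moved Fech to 0.12 and Hmox1 to 1.82 and 1.80. Over all alternatives Alas2 had a log2 ratio of 1.60 to 1.68 and Hmox1 of 1.80 to 1.92. Rescaling TPM without 48 globin and mitochondrial genes raised Alas1 to 56.9 TPM, Alad to 56.2, Uros to 17.7, Urod to 52.2 and Fech to 52.1. With 1 pup left out, Alas2 over Alas1, 1.61 on average, was 0.759 (pup 1 alone) or 2.46 (pup 2 alone). Which synthase is higher by gene level thus depends on the pup. The levels of Alas2 (40.5 or 125 TPM) and Hmox1 (65.7 or 232 TPM) do so too. Dropping 1 of 2 pups cannot move a mean by more than their SD, so those values say nothing of stability, and a ratio between pups could not be computed. No paired analysis was possible because both pups belong to 1 group. Depth limits transcripts with few reads more than the genes.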

Other observations

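The proteins that use haem gave a further reading of the same libraries. Of 18 genes for haem proteins and haem insertion, 17 were detected. Of the 17 with at least 100 counts, 1 was at least 2-fold higher in pup 2, against 1.70% of all 12733 genes. The median log2 ratio was 0.05. The highest were the cytochromes of mitochondrion and microsome, Cyb5a at 343 and 346 TPM, Cyc1 at 255 and 264 TPM and the succinate dehydrogenase subunit Sdhc at 247 and 228 TPM. Por, the reductase that serves cytochrome P450, was at 86.7 and 80.6 TPM, and Cygb, a globin of fibroblast-like cells, at 74.3 and 72.6 TPM. The 1 gene called was the phagocyte oxidase subunit Cybb, at 2.94 and 5.83 TPM, a log2 ratio of 1.18. Its partner Cyba, at 171 and 245 TPM, had a log2 ratio of 0.60 and was not called.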
